A study of Mus musculus with 24 samples.

Results

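Matrix metalloproteinases (MMPs) were measured in sorted mouse colon fibroblasts, and the 7 genes described here are the gelatinases Mmp2 and Mmp9, the stromelysins Mmp3, Mmp10 and Mmp11, the collagenase Mmp13 and the membrane-type enzyme Mmp14. They were chosen by symbol, with earlier results of these data known. A transcript cluster of the array had to be annotated to exactly 1 of these symbols. The brightest stood for its gene where there were several. Each of the 7 had 1 such probe set, so they make up 7 of the 30142 genes tested. The RNA came from cells sorted as negative for Epcam, CD45 and CD31 and positive for gp38, which is podoplanin, and was hybridised to 24 Affymetrix mouse transcriptome arrays. WT (7 arrays) carried Villincre-ERT2-ZsGreen with IhhWT and ApcWT, ApcKO (8 arrays) carried it with IhhWT and ApcKO, and IhhKO_ApcKO (9 arrays) carried it with IhhKO and ApcKO.

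All 3 groups therefore shared the inducible Cre and the ZsGreen reporter. The Villin promoter that drives this Cre is active in the epithelium, so the deletions were aimed at cells that the sort selected against. The levels of Apc and Ihh in the fibroblasts therefore do not check these deletions. Some epithelial RNA was still present, as given below. The double knockout differs from ApcKO in the Ihh alleles and from WT in both genes, and no group here had Ihh deleted alone. The labels give no age or sex and do not tie the arrays to separate mice, so the p-values measure the spread between these arrays.

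MMPs are zinc proteases made as inactive precursors. They cut collagens, basement membrane and other matrix proteins, and they also release or inactivate growth factors and cytokines. Fibroblasts are a main source of several of them in the gut wall, where they take part in the turnover of matrix and in wound repair. Mmp3, Mmp10 and the collagenases are typically switched on by inflammatory cytokines through AP-1, a dimer of Fos and Jun proteins. All MMPs are held in check by the tissue inhibitors of metalloproteinases (TIMPs).

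Values are RMA log2 values, so a difference of 1 is a doubling, and levels are compared within a gene and never between genes. Of the 2 control sets on each array, the 5222 negative control probe sets had array medians of 4.47 to 4.76 and 95th percentiles of 8.06 to 8.46. The 23 antigenomic background probe sets had array medians of 2.68 to 3.15, and their highest value on an array lay between 5.51 and 6.40. The sample code of each array has a letter that runs almost along with genotype: A for WT, B for ApcKO except A9, and C for IhhKO_ApcKO except B9. The array labelled IhhKO_ApcKO B9 stood apart from its group in the Hedgehog target Gli1, at 7.99 against 6.64 to 7.05 on the other 8 arrays and 7.98 to 8.47 on the Ihh-intact arrays. The member and list results that B9 moves are given with and without it.

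Of 7 measured fibroblast markers 6 (Pdpn, Col1a1, Col1a2, Dcn, Lum and Vim) lay above the 95th percentile of the negative controls on all 24 arrays. Thy1 did so on 0 arrays, and Pdgfra was not named here. Epithelial RNA was also present: Car1 passed that percentile on 19 arrays, Krt8 on 15, and Krt19 and Tff3 on 13 each. The other epithelial markers did so less often: Lgals4 on 6, Krt18 on 5, Cdh1 on 3, and Cldn7 and Fabp2 on 1 each. Epcam, Krt20, Vil1, Cldn3, Slc26a3 and Cdx2 did so on 0. The mean of 15 epithelial markers ran from 5.49 to 8.19 across arrays. Ptprc, which encodes CD45, lay below the negative control median on all 24 arrays, and Epcam lay above it on 23. Of the other leukocyte markers, Cd68 passed the 95th percentile on 23 arrays. Tyrobp, Fcer1g, Laptm5, Coro1a, Cd52, Cd3e, Cd79a and Csf1r lay above the median on all 24, S100a9 on 23 and Lyz2 on 22. Adgre1 lay above the median on 1 array, S100a8 on 2 and Itgam on 6. The endothelial marker Tek passed the 95th percentile on 17 arrays. Pecam1, which encodes CD31, passed it on 0 and lay above the median on 24.

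In IhhKO_ApcKO against ApcKO, Mmp10, also called stromelysin 2, was the member that rose. The call was lost when the letter of the sample code was fitted as a block, where B9 alone stands for the double knockout. The other 6 members had higher means too, by 0.97 for Mmp3, 0.28 for Mmp13, 0.27 for Mmp11, 0.17 for Mmp14, 0.052 for Mmp9 and 0.019 for Mmp2, and did not pass. Between IhhKO_ApcKO and WT, and between ApcKO and WT, no member passed. These statements are given with their values below, by the role of each enzyme.

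The stromelysins Mmp3 and Mmp10 cut proteoglycans, fibronectin and basement membrane proteins and activate other MMP precursors. In the double knockout Mmp10 stood at 5.39 on B9, 6.61 on C1, 6.13 on C2, 5.26 on C3, 6.36 on C4, 5.77 on C5, 5.75 on C6, 5.81 on C7 and 6.25 on C9. On the ApcKO arrays Mmp10 stood at 4.52 on A9, 4.71 on B1, 5.10 on B2, 5.03 on B3, 4.55 on B4, 4.85 on B5, 4.99 on B7 and 4.61 on B8. The groups did not overlap: the lowest double knockout array, C3, lay above the highest ApcKO array, B2. On the WT arrays Mmp10 had a lowest value of 4.49 on A6, a median of 4.96 and a highest value of 6.06 on A5. Array A5 lay within the double knockout range and the other 6 WT arrays lay below it.

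The Mmp10 mean was 5.93 ± 0.45 (SD, n = 9) for IhhKO_ApcKO, against 4.80 ± 0.23 (SD, n = 8) for ApcKO and 5.01 ± 0.53 (SD, n = 7) for WT. The rise from ApcKO was 1.13 log2 units (SE 0.19, 95% interval 0.75 to 1.51), which is 2.19-fold, with a limma adjusted p of 0.0083 over all genes. It was the 8th smallest p of 30142. Mmp10 was the 1 gene called higher, so it alone makes up the 0.00332% of genes called higher, and 0.0464% were called lower. How many genes rose with it depended on the fit: 1 was called higher and 14 lower here, 9 and 43 without B9, 6 and 36 without both A9 and B9, 18 and 49 with array weights, and 41 and 10 with the code letter as a block. Complete separation upward was seen for 3 genes, or 0.00995%; beside Mmp10 these were the adhesion molecule Chl1 (1.07, SE 0.24, adjusted p = 0.14) and the cysteine protease inhibitor Cstb (0.33, SE 0.066, adjusted p = 0.059), both picked out after their values were seen. Against WT the double knockout was higher by 0.92 (SE 0.19, 95% interval 0.52 to 1.31, 1.89-fold), above the WT mean on 9 of 9 arrays and above every WT array on 4, but the adjusted p was 0.060. In that comparison 0.00995% of genes were called higher and 0.073% lower. The order of the Mmp10 means was IhhKO_ApcKO, WT, ApcKO, and the last 2 did not differ beyond their spread (ApcKO minus WT -0.21, SE 0.20, adjusted p = 0.97, with 0.0% of genes called higher and 0.0% lower). Without WT array A5 that difference was -0.037 (SE 0.17), so the order of these 2 means was kept but most of the gap rested on A5.

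**Figure D1:**
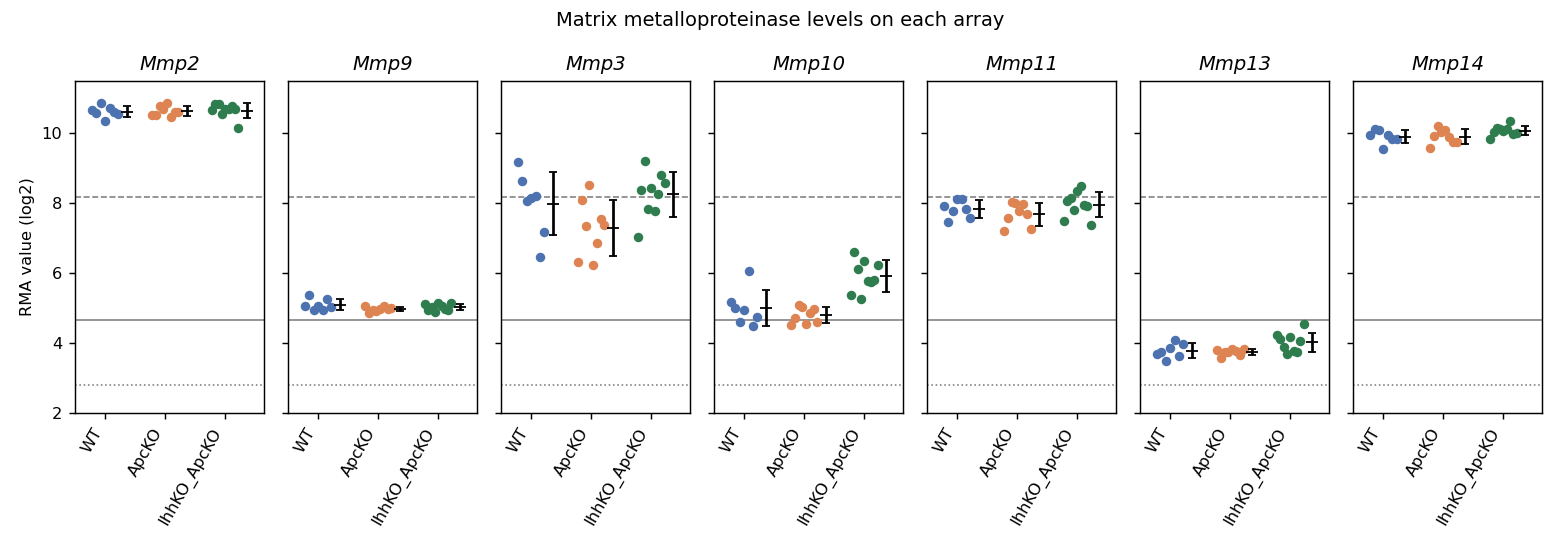
RMA values (log2, y axis) of the 7 MMP genes on each array, 1 panel per gene, with the 7 WT, 8 ApcKO and 9 IhhKO_ApcKO arrays as points and group means with SD as black bars. Solid, dashed and dotted lines mark the median over arrays of the negative control median, the negative control 95th percentile and the antigenomic median; the Mmp10 points of IhhKO_ApcKO, from 5.26 to 6.61, sit above all 8 ApcKO points.

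The Mmp10 signal was dim. No array brought it above the 95th percentile of its negative controls, and it exceeded the negative control median on 5 of 7 WT, 5 of 8 ApcKO and 9 of 9 double knockout arrays. Mmp10 was brighter than every antigenomic probe set on 1 WT, 0 ApcKO and 7 double knockout arrays. The call rested on no single array, since the difference from ApcKO ran from 1.04 to 1.21 when each array was left out in turn, with limma adjusted p-values from 0.0016 to 0.027. Without B9 it was 1.2 (SE 0.19, adjusted p = 0.0028), and without both A9 and B9 it was 1.16 (adjusted p = 0.0073). B9, the double knockout array in which Gli1 (7.99) and Ptch1 (9.53) were not low, stood at 5.39 for Mmp10. That value lay above the 7 ApcKO arrays with the letter B, of which B2 was highest at 5.10. With the letter as a block the difference was 0.55 (SE 0.40, adjusted p = 0.79), an estimate that compares B9 alone with those 7 arrays, so letter and genotype can otherwise not be told apart. Against WT the call depended on single arrays: the difference was 1.09 without A5 (adjusted p = 0.0075), 0.98 without B9 (adjusted p = 0.025) and 1.00 without C3 (adjusted p = 0.040).

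Mmp3, stromelysin 1, had a wide spread between arrays of the same genotype. It stood at 9.17 on A1, 8.64 on A2, 8.07 on A3, 8.14 on A4, 8.22 on A5, 6.47 on A6 and 7.19 on A8 in WT. In ApcKO it stood at 6.31 on A9, 8.09 on B1, 7.34 on B2, 8.52 on B3, 6.25 on B4, 6.88 on B5, 7.56 on B7 and 7.39 on B8. In the double knockout it stood at 7.03 on B9, 8.37 on C1, 9.22 on C2, 7.83 on C3, 8.43 on C4, 7.79 on C5, 8.26 on C6, 8.82 on C7 and 8.59 on C9. The 3 groups overlapped, and the lowest double knockout array was B9, in which Gli1 was not low. Every array lay above all antigenomic probe sets, and 3 WT, 1 ApcKO and 5 double knockout arrays lay above the negative control 95th percentile.

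The Mmp3 mean was 8.26 ± 0.65 (SD, n = 9) for IhhKO_ApcKO, against 7.29 ± 0.80 (SD, n = 8) for ApcKO and 7.99 ± 0.90 (SD, n = 7) for WT. The double knockout exceeded ApcKO by 0.97 (SE 0.34, 95% interval 0.26 to 1.67, 1.96-fold). It lay above the ApcKO mean on 8 of 9 arrays and above every ApcKO array on 3. By limma the unadjusted p was 0.0093 and the adjusted p was 0.68. Without B9 the difference was 1.12 (SE 0.34, adjusted p = 0.34). From WT the double knockout differed by 0.27 (SE 0.36, adjusted p = 0.90), with 6 of 9 arrays above the WT mean. That value moved between 0.020 without A6 and 0.47 without A1 when each array was left out. ApcKO minus WT was -0.69 (SE 0.37, 95% interval -1.45 to 0.059, adjusted p = 0.97). None of the neighbours in the order IhhKO_ApcKO, WT, ApcKO differed beyond their spread by this test.

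Mmp11, stromelysin 3, is known as a product of the fibroblasts around tumours. Its lowest, median and highest values were 7.48, 7.85 and 8.13 in WT, 7.20, 7.74 and 8.05 in ApcKO, and 7.39, 7.96 and 8.49 in the double knockout. The groups overlapped throughout, and 4 arrays in all lay above the negative control 95th percentile, 1 in WT and 3 in the double knockout. The differences were -0.15 (SE 0.16) for ApcKO minus WT, 0.27 (SE 0.15, adjusted p = 1.00, 7 of 9 arrays above the ApcKO mean) for IhhKO_ApcKO minus ApcKO and 0.12 (SE 0.15) for IhhKO_ApcKO minus WT.

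**Figure D2:**
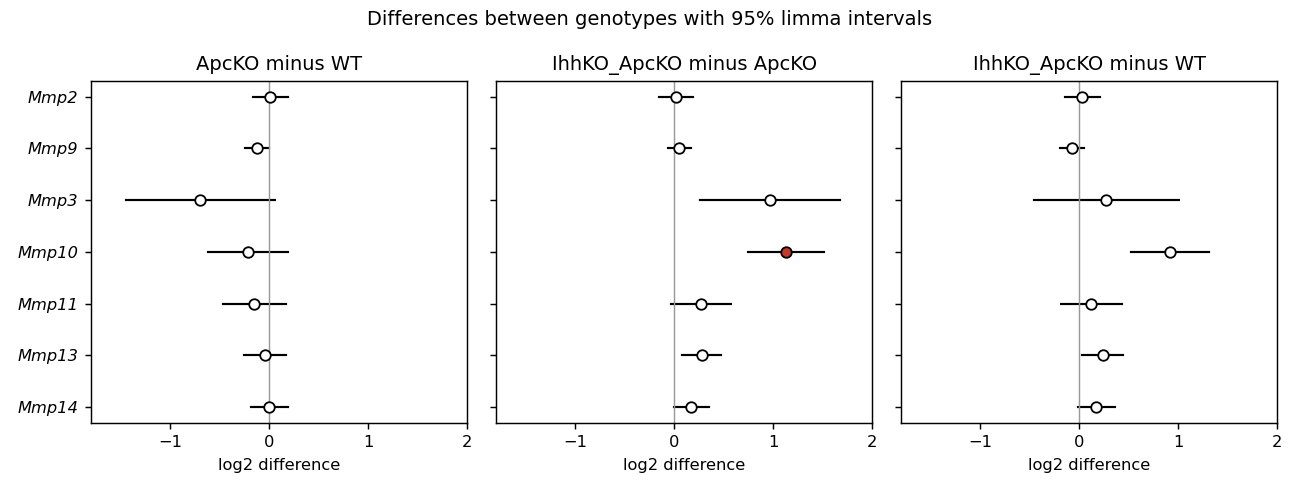
Log2 differences (x axis) of the 7 MMP genes in the 3 comparisons, with 95% limma intervals as bars and a filled red point where the adjusted p is under 0.05. The 1 filled point is Mmp10 in IhhKO_ApcKO minus ApcKO, at 1.13, and the interval of Mmp3 there, 0.26 to 1.67, is wider.

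Mmp13, the main fibrillar collagenase of mouse fibroblasts, was at background. It lay below the negative control median on all 24 arrays, at 3.50 to 4.10 in WT, 3.58 to 3.82 in ApcKO and 3.68 to 4.54 in IhhKO_ApcKO. Above the ApcKO maximum lay 6 of 9 double knockout arrays, C9 highest. The mean difference from ApcKO was 0.28 (SE 0.097, 95% interval 0.079 to 0.48, unadjusted p = 0.0081, adjusted p = 0.65 by limma). From WT it was 0.24 (SE 0.10, unadjusted p = 0.026, adjusted p = 0.57 by limma), and ApcKO minus WT was -0.041 (SE 0.10). With the signal under the negative control median, these values do not show that the fibroblasts made Mmp13.

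The gelatinases digest denatured collagen and the collagen of basement membranes. Mmp2, a constitutive product of fibroblasts, was bright on every array and lay above the negative control 95th percentile on 24 of 24. Its lowest, median and highest values were 10.37, 10.60 and 10.88 in WT, 10.46, 10.61 and 10.86 in ApcKO, and 10.16, 10.69 and 10.85 in the double knockout. The 3 ranges overlapped almost completely, apart from C9 at the low end of the double knockout. The limma differences were 0.012 (SE 0.087), 0.019 (SE 0.081, 95% interval -0.15 to 0.19) and 0.031 (SE 0.084) for ApcKO against WT, for the double knockout against ApcKO and for the double knockout against WT.

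Mmp9, the gelatinase typical of neutrophils and macrophages, had its lowest, median and highest values at 4.94, 5.06 and 5.39 in WT, 4.87, 4.98 and 5.06 in ApcKO, and 4.90, 5.03 and 5.15 in the double knockout. It lay above the negative control median on all arrays and above every antigenomic probe set on 0, so its level is near background. The groups overlapped. ApcKO minus WT was -0.12 (SE 0.060, unadjusted p = 0.049, adjusted p = 0.97 by limma, below the WT mean on 8 of 8 arrays), and IhhKO_ApcKO minus ApcKO was 0.052 (SE 0.057, adjusted p = 1.00).

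Mmp14, the membrane-type enzyme that activates the Mmp2 precursor at the cell surface, was bright on all 24 arrays. Its lowest, median and highest values were 9.56, 9.95 and 10.14 in WT, 9.57, 9.92 and 10.22 in ApcKO, and 9.85, 10.08 and 10.35 in the double knockout. The double knockout arrays lay in the upper part of a shared range, with B9 lowest and 8 of 9 above the ApcKO mean. The differences were 0.00054 (SE 0.091), 0.17 (SE 0.086, adjusted p = 0.99) and 0.17 (SE 0.089, adjusted p = 0.68) in the same order of comparisons as for Mmp2.

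Over the 7 members, 2 had a positive difference in ApcKO minus WT, 7 in IhhKO_ApcKO minus ApcKO and 6 in IhhKO_ApcKO minus WT. Among all genes 39.6%, 56.6% and 45.1% were positive. The members' median differences were -0.12, 0.27 and 0.17, beside -0.020, 0.011 and -0.010 over all genes. Limma called 0, 1 and 0 members, and 1, 3 and 2 of them had an unadjusted p under 0.05, as had 4.42%, 5.0% and 7.65% of all genes. The comparisons share arrays, so these counts are not independent of each other. The members were chosen with earlier results of these data known, so the counts describe the 7 genes and do not test the family.

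Mmp10, Mmp3 and Mmp13 are neighbours on mouse chromosome 9. By RefSeq gene order that cluster runs Mmp13, Mmp12, Mmp1b, Mmp3, Mmp1a, Mmp10, Mmp8, Mmp27, Mmp20, Mmp7, and the 10 protein-coding genes in its span are all MMPs. In IhhKO_ApcKO minus ApcKO all 10 had a positive difference, as had 56.6% of all genes. Those of the 7 that are not members lay between 0.036 for Mmp20 and 0.20 for Mmp12, and 0 of these 7 passed. The Mmp12 value rested on C9, at 4.77 against 3.03 to 3.37 on the other 8 double knockout arrays, and was 0.021 (SE 0.067) without it. Of them Mmp27 exceeded the negative control median on 23 of 24 arrays and each of the other 6 on at most 2, so their differences, like that of Mmp13, come from dim signal. The other members lie on chromosomes 8 (Mmp2), 2 (Mmp9), 10 (Mmp11) and 14 (Mmp14).

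**Figure D3:**
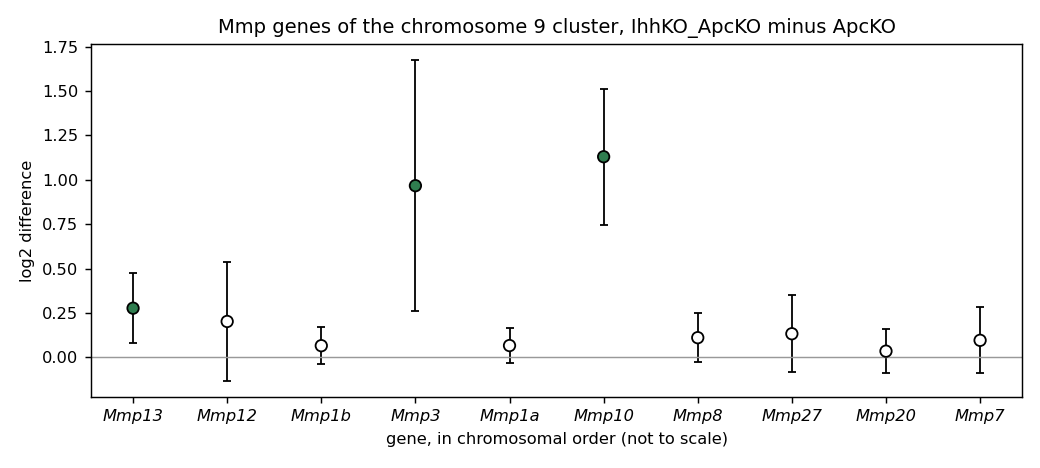
Log2 differences IhhKO_ApcKO minus ApcKO (y axis) of the 10 MMP genes of the chromosome 9 cluster in chromosomal order (x axis, not to scale), with 95% limma intervals; filled points are the members Mmp13, Mmp3 and Mmp10. The filled points include Mmp3 at 0.97, which did not pass, and Mmp10 at 1.13. The open points lie between 0.036 and 0.20 and come from dim signal.

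The promoters of Mmp10, Mmp3 and Mmp13 are shown because they carry the AP-1 element by which these 3 clustered genes are known to be induced. They are RefSeq windows on GRCm38.p6, plus strand, from 250 bases before to 50 bases after the start of the gene, and 5 of the 7 members had such a window (Mmp3, Mmp10, Mmp11, Mmp13 and Mmp14). Mmp2 and Mmp9 had none. Capitals mark the match to the AP-1 motif TGANTCA.
Mmp10, chr9:7502092-7502391: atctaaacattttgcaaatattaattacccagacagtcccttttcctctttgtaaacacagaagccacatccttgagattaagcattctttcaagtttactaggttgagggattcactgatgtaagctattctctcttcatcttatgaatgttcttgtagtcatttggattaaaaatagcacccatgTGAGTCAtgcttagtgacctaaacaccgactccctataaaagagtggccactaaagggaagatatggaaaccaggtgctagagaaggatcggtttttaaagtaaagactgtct
Mmp3, chr9:7445572-7445871: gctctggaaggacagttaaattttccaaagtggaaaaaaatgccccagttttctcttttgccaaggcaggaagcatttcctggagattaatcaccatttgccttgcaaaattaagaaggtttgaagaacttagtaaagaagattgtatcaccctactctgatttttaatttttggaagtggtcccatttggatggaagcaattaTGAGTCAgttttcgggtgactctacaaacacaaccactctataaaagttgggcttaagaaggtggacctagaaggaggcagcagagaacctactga
Mmp13, chr9:7272264-7272563: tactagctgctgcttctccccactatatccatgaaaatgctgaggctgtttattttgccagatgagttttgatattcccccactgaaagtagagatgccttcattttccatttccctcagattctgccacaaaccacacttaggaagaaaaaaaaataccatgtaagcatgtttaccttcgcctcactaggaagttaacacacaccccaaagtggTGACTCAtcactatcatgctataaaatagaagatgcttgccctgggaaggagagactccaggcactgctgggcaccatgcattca

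The AP-1 motif was searched on both strands and had 1 match in each of these windows, which began 63 bases upstream of the start in Mmp10, 46 in Mmp3 and 35 in Mmp13. Mmp11 and Mmp14 had 0 matches, and 7.81% of the 32851 RefSeq windows of the same length held at least 1. The core TATA letters TATAAA were found 1 time in each of Mmp10, Mmp3 and Mmp13 and 0 times in Mmp11 and Mmp14, against 13.6% of all windows. They began 29 bases upstream of the start in Mmp10, 7 in Mmp3 and 16 in Mmp13. All distances are from the annotated start, whose accuracy was not tested, so they may not be comparable between genes. The Ets-type element AGGAAG, called PEA3, occurred 1 time in Mmp3, 2 times in Mmp13, 1 time in Mmp14 and 0 times in Mmp10 and Mmp11, against 35.4% of all windows. The letters GACCACCCA, bound by the GLI factors of the Hedgehog pathway, occurred in 0 of the 5 windows and in 0.253% of all windows. No match overlapped a match of another motif. TGANTCA is its own reverse complement, so an AP-1 match reads on both strands and was counted 1 time, and all matches of the other motifs lay on the plus strand. A match describes letters in the window and is not evidence of binding.

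Across arrays of the same genotype Mmp3 and Mmp10 were compared with exact two-sided permutation tests, as part of 27 relations among members, Gli1 and marker means. Pearson's r was 0.50 (p = 0.27) and Spearman's rho 0.86 (p = 0.024) over the 7 WT arrays by the exact permutation test. Over the 8 ApcKO arrays they were 0.61 (exact p = 0.12) and 0.57 (exact p = 0.15), and over the 9 double knockout arrays 0.61 (exact p = 0.080) and 0.60 (exact p = 0.097). With the 2 arrays farthest from the median of Mmp3 left out, r was 0.31, 0.34 and 0.52. After adjustment over the 27 relations these p-values were 0.72, 0.65 and 0.65 for r and 0.56 for each rho, so none passed. Gli1 and Mmp10 had no common sign across genotypes. Their r was 0.47 in WT (exact p = 0.29), 0.28 in ApcKO (exact p = 0.50) and -0.48 in the double knockout (exact p = 0.21), with adjusted p-values of 0.72, 0.82 and 0.65. Their rho was 0.21, 0.41 and -0.23 (exact p = 0.66, 0.33 and 0.55; adjusted p = 0.94, 0.80 and 0.94). With the 2 arrays farthest from the median of Gli1 left out, r was -0.68 in WT, 0.86 in ApcKO and -0.11 in the double knockout, where these were B9 and C7.

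**Figure D4:**
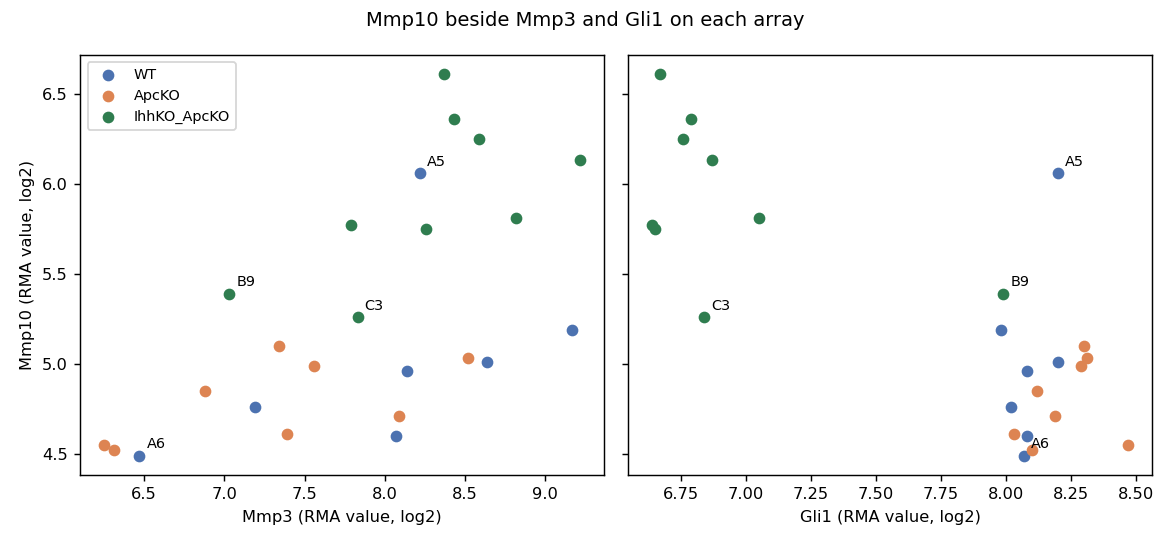
Mmp10 (RMA value, log2, y axis) against Mmp3 (left x axis) and Gli1 (right x axis), 1 point per array, coloured by genotype, with A5, A6, B9 and C3 named. In the right panel 8 double knockout arrays have Gli1 at 6.64 to 7.05, while B9, at 7.99, lies among the Ihh-intact arrays with Mmp10 at 5.39.

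By residuals from the genotype means over 24 arrays, the genes of the brighter 15071 most like Mmp10 were Afap1l2 (r = 0.75), R3hdm4 (0.75), Wdr45 (0.72), Enpp4 (0.65) and Trp53bp2 (0.65). For Mmp3 they were Man2a1 (0.69), Txn2 (0.68), Gm14305 (0.68), 2210418O10Rik (0.68) and Rnaseh1 (0.68). None of these 10 passed in IhhKO_ApcKO minus ApcKO, where the adapter Afap1l2 differed by 0.20 (SE 0.095, adjusted p = 0.99). The points share the arrays and their normalization, and the r values are descriptions. Between Mmp3 and Mmp10 the same r was 0.53.

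The other MMP family genes stayed under the threshold: of 16 listed, 15 were measured (Mmp15 was not named here) and limma called 0 in each comparison, with 0, 1 and 2 at an unadjusted p under 0.05. In IhhKO_ApcKO minus ApcKO their differences ran from -0.21 to 0.20. Of the 15, 11 were positive with a median of 0.053, beside 56.6% and 0.011 for all genes. The smallest p belonged to Mmp23, with a mean of 8.80 ± 0.23 (SD, n = 9) for the double knockout against 9.01 ± 0.098 (SD, n = 8) for ApcKO (-0.21, SE 0.078, adjusted p = 0.71), and the next to the membrane-type Mmp16 (-0.12, SE 0.059). Matrilysin, Mmp7, known from epithelium, averaged 4.26, 4.27 and 4.37 in WT, ApcKO and the double knockout. The neutrophil collagenase Mmp8 averaged 3.85, 3.77 and 3.88, the macrophage elastase Mmp12 3.17, 3.12 and 3.32 (3.14 without C9), and Mmp19 8.23, 8.14 and 8.28, in the same order. None of these 4 passed.

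The inhibitors and activators of MMPs also held no call. Of 6 inhibitors 0 passed in IhhKO_ApcKO minus ApcKO by limma, with 1 at an unadjusted p under 0.05. Timp3, the inhibitor that binds to the matrix, had a mean of 10.36 ± 0.16 (SD, n = 9) for the double knockout against 10.13 ± 0.20 (SD, n = 8) for ApcKO (0.23, SE 0.079, adjusted p = 0.65). Timp1, the inhibitor that is induced along with MMPs, differed by 0.17 (SE 0.094), Timp2 by 0.016 (SE 0.049) and Timp4 by 0.038 (SE 0.063), and the membrane-anchored inhibitor Reck by -0.14 (SE 0.072), each with an adjusted p of 1.00. Of 7 measured genes of MMP activation 0 passed, with 1 at an unadjusted p under 0.05. Those with the smallest p were the proprotein convertases Pcsk5 (-0.28, SE 0.086, adjusted p = 0.47) and Furin (0.051, SE 0.054, adjusted p = 1.00), the latter known for activating membrane-type MMPs.

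Among inducing cytokines, their receptors and AP-1 or Ets factors, 17 of 18 were measured (Junb was not named here). In IhhKO_ApcKO minus ApcKO 14 of 17 were positive with a median of 0.093, beside 56.6% and 0.011 for all genes. Of the 17, 0 passed by limma and 3 had an unadjusted p under 0.05. The list mean ran from 7.85 to 8.14 on the double knockout arrays and from 7.75 to 7.94 on the ApcKO arrays. Osmr, the receptor of oncostatin M, had a mean of 9.51 ± 0.12 (SD, n = 9) for the double knockout against 9.31 ± 0.11 (SD, n = 8) for ApcKO (0.19, SE 0.059, adjusted p = 0.44), and Ets2 differed by 0.18 (SE 0.070, adjusted p = 0.83). The 6 measured AP-1 subunits differed by -0.021 (SE 0.041) for Fos, -0.058 (SE 0.041) for Fosb, 0.14 (SE 0.13) for Fosl1, 0.093 (SE 0.098) for Fosl2, -0.030 (SE 0.050) for Jun and 0.012 (SE 0.077) for Jund, and 0 of them passed. Il1b, which encodes interleukin-1 beta, stood at 6.39 on B9 against 4.58 to 5.68 on the other double knockout arrays. Its difference from ApcKO was 0.35 (SE 0.17, unadjusted p = 0.050, adjusted p = 0.99) with B9 and 0.20 (SE 0.12, adjusted p = 1.00) without it, and its difference from WT was 0.61 (SE 0.18, adjusted p = 0.24). Without B9 the list had 13 of 17 positive, 0 called and 2 at an unadjusted p under 0.05, and the highest mean was 8.01. Of the 12 matrix proteins that MMPs cut, 9 had a negative difference and 0 passed, with 0 at an unadjusted p under 0.05, among them Col1a1 (-0.18, SE 0.10) and Fn1 (-0.096, SE 0.064).

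The Hedgehog targets Gli1, Ptch1 and Hhip, genes that Hedgehog ligands are known to switch on, were called lower in the double knockout against both other groups. Gli1 differed from ApcKO by -1.31 (SE 0.13, adjusted p = 3.79e-06), Ptch1 by -1.32 (SE 0.18, adjusted p = 0.0013) and the Hedgehog-binding protein Hhip by -1.39 (adjusted p = 0.0044). Without B9 the same differences were -1.44, -1.47 and -1.52.

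Markers of other cell types did not pass in IhhKO_ApcKO minus ApcKO, and their list means overlapped between the groups. Among all genes 56.6% were positive in this comparison. In a bulk sample a change in the number of cells of a type and a change in RNA per cell cannot be told apart. Of 15 leukocyte markers 13 were positive and 0 passed by limma, with 0 at an unadjusted p under 0.05, and the list mean was 5.16 to 5.65 on double knockout arrays, 5.08 to 5.31 on ApcKO arrays and 5.01 to 5.33 on WT arrays, with B9 highest and the other 8 double knockout arrays at most at 5.45. Tyrobp had the smallest p of them (0.34, SE 0.17, adjusted p = 0.99), and the next was Itgam (0.099, SE 0.057). The neutrophil list (7 of 8 positive, 0 called) ran from 4.75 to 5.31 on the double knockout arrays and from 4.73 to 5.14 on the ApcKO arrays, with Mpo (0.093, SE 0.054) and S100a8 (0.22, SE 0.25, or 0.056 without B9) first by p. The macrophage list (6 of 8 positive, 0 called) ran from 5.51 to 6.0 and from 5.49 to 5.83, with C1qa (-0.10, SE 0.078) and C1qc (0.10, SE 0.11) first. None of the members of either list had an unadjusted p under 0.05. The neutrophil genes Csf3r, Cxcr2, Ly6g, Elane and Mpo lay above the negative control median on all 24 arrays. S100a9 did so on 23, S100a8 on 2 and Retnlg on 0. The macrophage genes Csf1r, Cd68, C1qa, C1qb and C1qc lay above it on all 24, Lyz2 on 22, Adgre1 on 1 and Mrc1 on 0. B9 was highest in both lists, and the other 8 double knockout arrays reached 5.02 in the neutrophil and 5.89 in the macrophage list. Without B9 the positive counts were 11 of 15, 5 of 8 and 4 of 8 for leukocytes, neutrophils and macrophages, with 0 called and 0 at an unadjusted p under 0.05. Of 15 epithelial markers all were negative and 0 passed, with 0 at an unadjusted p under 0.05, and Krt20 (-0.62, SE 0.32) and Car1 (-1.31, SE 0.84) had the smallest p. With the epithelial mean as a covariate the Mmp10 difference was 1.14 (SE 0.19, adjusted p = 0.012), and with the leukocyte mean it was 1.16 (SE 0.20, adjusted p = 0.012).

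Of 8 pericyte and smooth muscle markers 6 were negative and 0 passed, with 4 at an unadjusted p under 0.05, beside 5.0% of all genes. These 4 were Actg2 (-0.31, SE 0.11), Cnn1 (-0.40, SE 0.14), Myh11 (-0.40, SE 0.15) and Des (-0.19, SE 0.089). The positive ones were Kcnj8 (0.18, SE 0.094) and Abcc9 (0.083, SE 0.085). The mean of the 8 markers ran from 6.53 to 7.07 on the double knockout arrays and from 6.87 to 7.21 on the ApcKO arrays. The part of these markers in the Mmp10 result was not tested. Of 9 endothelial markers 0 passed and 2 had an unadjusted p under 0.05, led by Tek (-0.39, SE 0.11, adjusted p = 0.33) and Lyve1 (-0.25, SE 0.11). The 6 mesothelial markers, with Lrrn4 (0.37, SE 0.25) and Krt19 (-0.34, SE 0.49) first by p, and the 4 measured glial markers, with Gfap (0.097, SE 0.084) and S100b (-0.056, SE 0.086) first, had 0 calls and 0 at an unadjusted p under 0.05. Of 7 measured fibroblast markers 6 were negative, 0 passed and 0 had an unadjusted p under 0.05, with Pdpn at 0.092 (SE 0.048) and a mean of 10.44 to 10.77 on the double knockout arrays and 10.64 to 10.78 on the ApcKO arrays. Xist, read as a sign of mixed sexes, was under 5 on 3 WT, 5 ApcKO and 3 double knockout arrays and over 10 on 2, 3 and 6, and with Xist as a covariate the Mmp10 difference was 1.18 (SE 0.19, adjusted p = 0.0097).

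**Figure D5:**
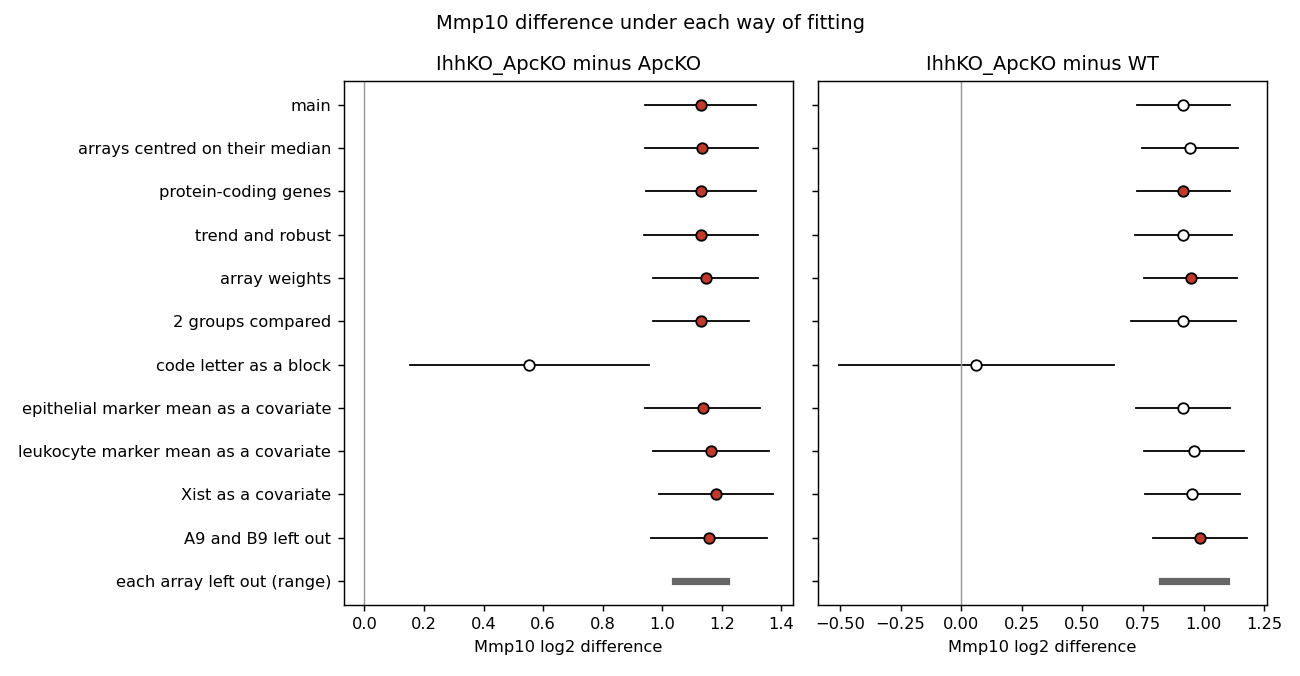
Mmp10 log2 differences (x axis) from ApcKO (left) and from WT (right) under each way of fitting (y axis), with bars of 1 SE, red points where the adjusted p is under 0.05 and a thick grey bar for the range when each array is left out. From ApcKO every point is near 1.1 and red except the code letter as a block, at 0.55; from WT 3 of the 11 points are red.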

How the data were processed

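RNA was measured on 24 arrays, and the deposited table holds RMA log2 values made by the authors, per the submitters' processing notes. The RMA version and the array's genome build were not found in the sources used here, so gene positions were read only as an order, apart from RefSeq promoter windows. The table held 72688 probe sets. After 6732 controls were left out, 30604 of 65956 transcript clusters had 1 gene symbol, 2146 had several and were not named, and 33206 had none. Symbols were updated through Entrez identifiers for 827. The probe set with the highest mean stood for each gene, 355 genes having several, which gave 30142 genes with no filter on dim signal. No 2 arrays were identical.

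Groups came from the sample titles. All 24 arrays entered 1 limma 3.58.1 model (lmFit and eBayes in R 4.3.3) with 3 contrasts, and Benjamini-Hochberg adjusted p-values over all genes passed under 0.05. Relations within a group were tested by exact permutation with NumPy 2.4.6, and SciPy 1.17.1 made the Benjamini-Hochberg adjustment over the 27 relations. Precision is limited by the number of arrays.

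The members, the gene lists, the tests and the rule for named genes were chosen with earlier results of these data known. Named were the 7 members, Mmp7, Mmp8, Mmp12, Mmp19, the Timp genes and Reck, and every list gene that passed. Also named were the 2 genes of each list with the smallest p in IhhKO_ApcKO minus ApcKO, and the 5 genes most like Mmp10 and Mmp3. Chl1, Cstb, Il1b and the AP-1 subunits were named after their values were seen. So were Myh11, Des, Kcnj8, Abcc9 and the cell type markers set beside the control probe sets. Alternatives were median centring, the brighter genes, protein-coding genes, a trend with robust eBayes, array weights, the 2 groups compared, the code letter as a block, covariates, and leaving out arrays; leaving out A9 and B9 together was added after seeing the data.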

Additional observations from a re-analysis of the deposited data

Results flagged for a closer look

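Mmp2 on array C9 of IhhKO_ApcKO stood at 10.16, the lowest of the 9 arrays, and its gap to the next array was 0.58 of the group's range, above the 95% critical value of 0.493. This was 1 of 21 groups of member values tested, and chance flags about 1 in 20. C9 also had the lowest array weight, at 0.26, the highest negative control 95th percentile, at 8.46, and the highest epithelial marker mean, at 8.19, and the part of these in its Mmp2 value was not tested.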

How the results depend on the processing

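The rise of Mmp10 over ApcKO kept its direction in all 34 alternatives that gave a value and passed in 33, ranging from 1.04 to 1.21 when each array was left out; with the code letter as a block it was 0.55 and did not pass. Mmp10 against WT, which did not pass, passed with protein-coding genes only (0.92), with array weights (0.95) and without A9 and B9 (0.98), and ranged from 0.83 to 1.09 when each array was left out. The number of members called in IhhKO_ApcKO minus ApcKO was 0 with the block and 0 among the brighter genes, where Mmp9, Mmp10 and Mmp13 were not tested, and 1 to 1 when each array was left out. In IhhKO_ApcKO minus WT it was 1 with protein-coding genes, 1 with array weights, 1 without A9 and B9, and 0 to 1 when each array was left out. Genes called in IhhKO_ApcKO minus ApcKO, 15 at first, numbered 8 after median centring, 23 among the brighter genes, 67 with array weights, 51 with the block, 42 without A9 and B9, and 8 to 52 when each array was left out, 52 being without B9 and 25 without A9. In IhhKO_ApcKO minus WT, with 25, they numbered 14 after centring, 39 with protein-coding genes, 46 with array weights, 8 with the 2 groups alone, 82 with the block, 81 without A9 and B9, and 12 to 66 when each array was left out. In ApcKO minus WT the block called 119 in place of 0.

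The block, which rests on A9 and B9 alone, turned the sign of Mmp2 (-0.087), Mmp13 (0.020) and Mmp14 (-0.34) in ApcKO minus WT, of Mmp3 (-0.40), Mmp11 (-0.26) and Mmp14 (-0.11) in IhhKO_ApcKO minus ApcKO, and of Mmp2 (-0.076), Mmp3 (-2.08), Mmp9 (0.13), Mmp11 (-0.90) and Mmp14 (-0.45) in IhhKO_ApcKO minus WT. The Xist covariate turned Mmp14 in ApcKO minus WT (-0.0033) and Mmp2 in IhhKO_ApcKO minus ApcKO (-0.0084), as did the epithelial covariate for the latter (-0.0093). Leaving out single arrays gave -0.088 to 0.011 for Mmp13, -0.059 to 0.049 for Mmp14 and -0.031 to 0.054 for Mmp2 in ApcKO minus WT, and -0.0074 to 0.080 and -0.012 to 0.093 for Mmp2 in the other comparisons. None of these passed, and the cause was not tested. Each member had 1 probe set, so no other probe set gave a value. No paired analysis was possible because the groups share no replicate code. The dim signal of Mmp9, Mmp10 and Mmp13 over the controls limits the size of their differences.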
